A study of Mus musculus with 6 samples.

Results

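Collagens are the triple-helical proteins of the extracellular matrix, and each is wound from 3 alpha chains. The collagen chains described here are the 42 genes, of 18193 genes measured, whose symbols name a collagen alpha chain and which have a probe set that the array annotation assigns to that gene alone. The brightest probe set on average over the 6 arrays stood for its gene, and the chains were sorted into 6 structural classes from textbook knowledge: 11 fibrillar, 9 basement membrane (the anchoring-fibril chain and the multiplexins included), 9 fibril-associated, 5 beaded, 3 network-forming and 4 transmembrane chains, with Col26a1 left over. A further 3 chains of these lists, Col6a6, Col21a1 and Col28a1, were not analysed here.

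The 2 groups were sorted from fresh bone marrow of untreated adult wild-type C57BL/6 mice, both depleted of cells carrying CD45 (leukocytes), TER119 (erythroid cells) and CD31 (endothelium), which targets the non-haematopoietic stroma. The first group was Ebf2-positive (3 arrays), Ebf2 being a transcription factor of immature mesenchymal cells, and the second was Ebf2-negative (3 arrays). The labels do not say how Ebf2 was detected or whether replicates came from different animals, so each p-value reflects the spread among these 6 samples alone, and that spread may be technical. RNA from small numbers of sorted cells was amplified by a dual protocol and hybridised to Affymetrix MOE430_2 arrays, whose values are log2 RMA signals in what follows.

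Fibrillar chains pack side by side into the banded fibres that bear tension, basement membrane chains form the sheets under endothelium and around mural cells, and fibril-associated chains sit on fibre surfaces. Beaded type VI filaments surround single cells, network-forming chains build lattices in vessel walls and cartilage, and transmembrane chains anchor in cell membranes. In marrow, collagens form the reticular meshwork, vessel sheaths and the bone surface, while types II, IX, X and XI are the set of cartilage.

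The sort and the other cells on the arrays bear on everything that follows. Ebf2 itself averaged 8.33 ± 0.41 in Ebf2-positive cells and 3.66 ± 0.49 in Ebf2-negative cells (SD, n = 3 each). The 10 erythroid markers had mean log2 signals of 4.65 to 5.27 in Ebf2-positive cells, against 9.53 to 9.74 in Ebf2-negative cells, and all 10 were lower in Ebf2-positive cells. The summed linear signal of that list ran from 381 to 945 on Ebf2-positive arrays and from 13258 to 14652 on Ebf2-negative arrays. All 9 measured fibroblast markers and all 10 mural cell markers were higher in Ebf2-positive cells, with summed linear signals on Ebf2-positive arrays of 29485 to 37134 and 21546 to 24653. On Ebf2-negative arrays these sums were 772.9 to 1734 and 860.9 to 1654. All measured markers of the 3 lists passed an adjusted p of 0.05 in limma. Of all genes, 10.8% did so as higher and 13.6% as lower. None of the genes of these 3 lists lay below the array median on all arrays. A smaller number of cells that make a collagen and less collagen RNA per cell cannot be told apart in such bulk samples, and the part of the cell mix in the collagen differences was not tested. Differences are Ebf2-positive minus Ebf2-negative and are relative to the other genes on an array. Centring on the added poly-A controls, called poly-A centring below, shifts each of them by -2.48 on the log2 scale and gives a median over all genes of -2.41 in place of 0.07. The controls averaged 12.16, 12.23 and 12.58 on the Ebf2-positive arrays, with 10.31, 8.70 and 10.52 for the Ebf2-negative ones. They were lowest on Ebf2-negative replicate 2, which enlarges the shift, and such centring adds their spread to that of every gene.

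Promoter windows of Col4a1, Col4a2, Col4a5 and Col4a6 are shown first, because these type IV genes lie in head-to-head pairs. Col4a1 and Col4a2 had like differences, and Col4a5 and Col4a6 unlike differences. The type IV neighbours Col4a4 and Col4a3 also had unlike differences but are not shown, since no window was available for Col4a3. The windows, from RefSeq on GRCm38.p6, run from 250 bases before to 50 bases after an annotated start. Capitals mark each match, on either strand, to the CCAAT box (CCAAT) or the GC box (GGGCGG). Col4a1, at chr8:11312777-11313076 on the minus strand, and Col4a2, at chr8:11312555-11312854 on the plus strand, have windows that overlap by 78 bases. Col4a5 lies at chrX:141475169-141475468 on the plus strand and Col4a6 at chrX:141474027-141474326 on the minus strand, with no overlap.
Col4a1: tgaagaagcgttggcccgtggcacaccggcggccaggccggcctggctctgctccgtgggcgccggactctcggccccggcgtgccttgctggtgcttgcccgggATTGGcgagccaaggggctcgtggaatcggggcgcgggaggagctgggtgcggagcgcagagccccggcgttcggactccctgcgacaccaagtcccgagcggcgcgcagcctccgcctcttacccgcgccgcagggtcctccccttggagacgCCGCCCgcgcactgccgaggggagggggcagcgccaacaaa
Col4a2: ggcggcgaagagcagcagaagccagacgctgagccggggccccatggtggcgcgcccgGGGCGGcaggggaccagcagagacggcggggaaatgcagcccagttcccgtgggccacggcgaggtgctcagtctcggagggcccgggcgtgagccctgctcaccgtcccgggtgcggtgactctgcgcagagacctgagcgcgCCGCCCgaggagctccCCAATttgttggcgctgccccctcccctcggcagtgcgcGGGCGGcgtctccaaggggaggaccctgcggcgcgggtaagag
Col4a5: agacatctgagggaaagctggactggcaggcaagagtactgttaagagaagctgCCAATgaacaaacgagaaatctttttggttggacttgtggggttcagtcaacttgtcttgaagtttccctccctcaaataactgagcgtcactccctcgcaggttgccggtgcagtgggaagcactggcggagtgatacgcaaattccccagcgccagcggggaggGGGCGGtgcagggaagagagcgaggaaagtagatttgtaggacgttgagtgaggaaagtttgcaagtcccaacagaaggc
Col4a6: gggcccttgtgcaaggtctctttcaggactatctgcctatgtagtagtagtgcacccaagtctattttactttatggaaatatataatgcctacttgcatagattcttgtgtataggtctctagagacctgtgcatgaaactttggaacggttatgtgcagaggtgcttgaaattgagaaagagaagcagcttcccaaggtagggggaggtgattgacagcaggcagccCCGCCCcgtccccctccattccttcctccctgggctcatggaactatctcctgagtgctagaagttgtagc

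Of 42 chains, 19 (45.2%) passed an adjusted p of 0.05 and all 19 were higher, against 10.8% of all genes called higher, 13.6% called lower and 24.4% called in either direction (limma with Benjamini-Hochberg adjustment over 18193 genes). The median difference of the 42 chains was 1.77, against 0.07 over all genes. With poly-A centring that median was -0.71, and 9 chains were called higher and 16 lower (227 and 15596 of all genes). The 9 were Col14a1, Col4a5, Col3a1, Col5a3, Col6a3, Col15a1, Col5a2, Col18a1 and Col4a2. The groups did not overlap for 26 chains, higher in each case, where 21.8% of all genes had that property in the same direction and 21.2% in the other, in which there were 0 chains. Adjusted p of the 19 ran from 0.000116 (Col4a5) to 0.0174 (Col22a1). Of these chains, 18 differed at least 4-fold and 9 at least 16-fold.

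**Figure D1:**
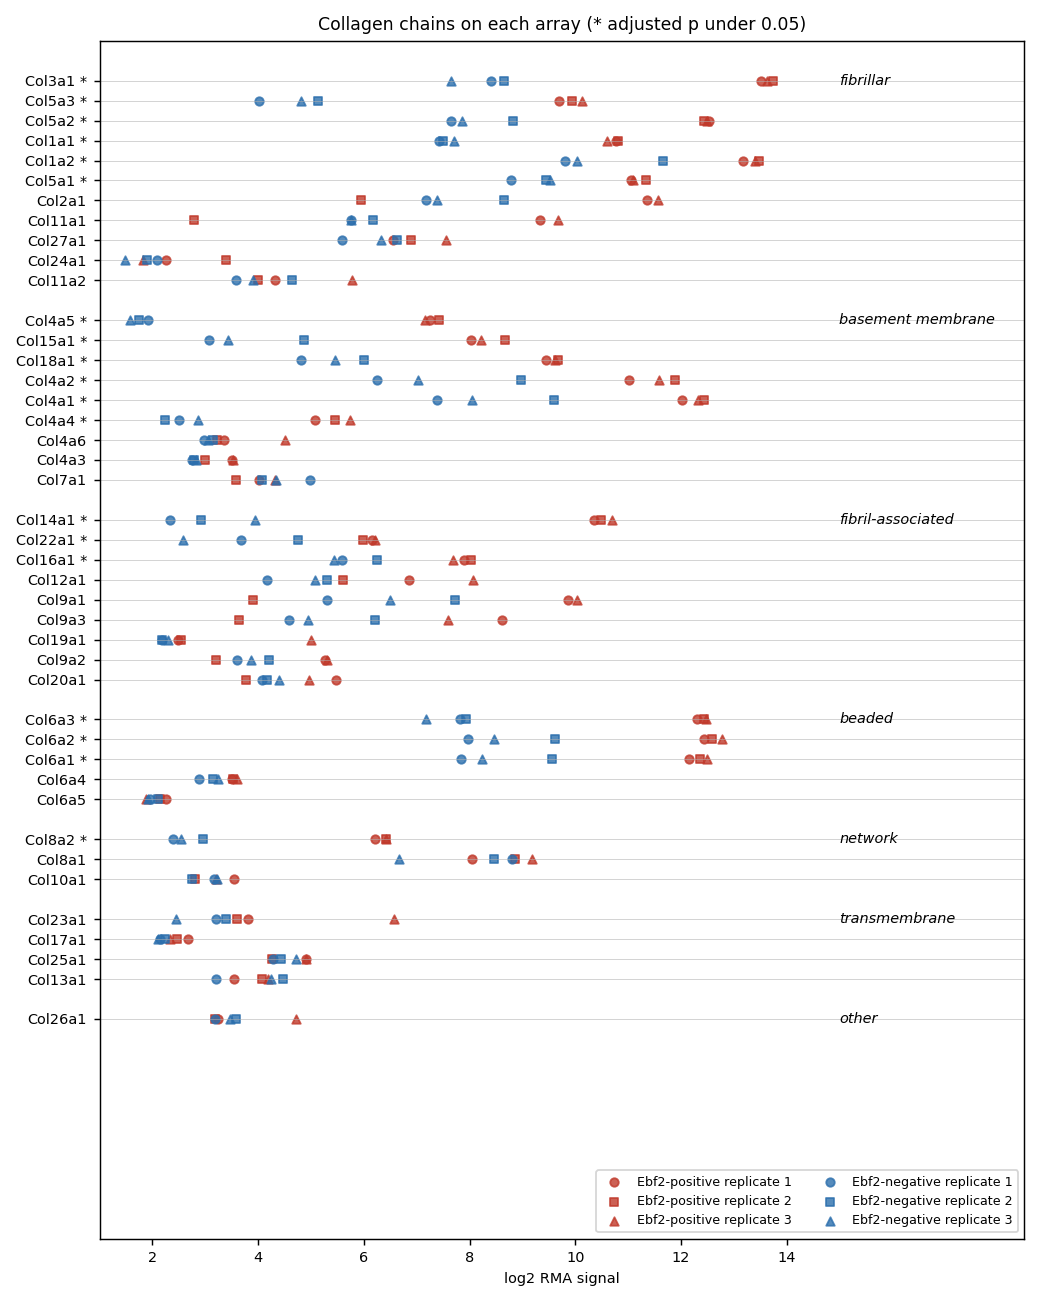
Log2 RMA signal (horizontal axis) of each of the 42 collagen chains, grouped by class down the page; each symbol is 1 array, red for the 3 Ebf2-positive and blue for the 3 Ebf2-negative arrays, with the shape giving the replicate number and an asterisk marking adjusted p under 0.05. The red symbols of the 19 called chains lie close together to the right of all blue ones, whereas those of Col2a1, Col11a1, Col9a1 and Col9a3 are split, with Ebf2-positive replicate 2 (red square) far to the left.

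Among fibrillar chains, 6 of 11 were called higher and 0 lower, with a median difference of 1.91 (-0.57 with poly-A centring). The interstitial chains of types I, III and V made up all 6. Col3a1, the single chain of type III collagen in reticular fibres and vessel walls, read 13.51, 13.75 and 13.63 in Ebf2-positive cells, against 8.42, 8.66 and 7.65 in Ebf2-negative cells. The groups were 4.85 apart at their nearest arrays, and the difference was 5.39 (SE 0.29), or 41.8-fold, with an adjusted p of 0.00032 in limma. Both of its probe sets were called, the other by 6.54.

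Type V collagen, which sets the width of type I fibres, had its 3 chains called by unequal amounts. Col5a3 stood at 9.70, 9.94 and 10.12 in Ebf2-positive cells against 4.01, 5.13 and 4.80 in Ebf2-negative cells. The gap came to 5.27 (SE 0.32), 38.6-fold. Col5a2 had 12.53, 12.43 and 12.49 in Ebf2-positive against 7.66, 8.82 and 7.85 in Ebf2-negative cells, which gave 4.37 (SE 0.33) or 20.7-fold. Col5a1, by contrast, differed by 1.91 (SE 0.26) or 3.76-fold, at 11.17 ± 0.15 in Ebf2-positive cells and 9.26 ± 0.40 in Ebf2-negative cells. With poly-A centring the difference of Col5a1 was -0.57, and those of Col5a3 and Col5a2 stayed positive at 2.79 and 1.89. The second Col5a3 probe set differed by 0.62 and lay below the array median on all 6 arrays.

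Type I collagen, the main protein of bone and tendon, is built from Col1a1 and Col1a2. Col1a1 was at 10.76, 10.81 and 10.61 in Ebf2-positive cells and at 7.42, 7.50 and 7.72 in Ebf2-negative cells. Their difference came to 3.18 (SE 0.18), 9.05-fold. Its partner Col1a2, added here beyond the naming rule, had 13.17, 13.49 and 13.40 in Ebf2-positive against 9.80, 11.67 and 10.03 in Ebf2-negative cells. Both chains separated the groups, and the Col1a2 difference was 2.85 (SE 0.50) or 7.22-fold. Ebf2-negative replicate 2 stood above its group for Col1a2 in the probe sets used, but a second Col1a1 probe set was highest there too, at 4.25, 6.36 and 5.44 on the Ebf2-negative arrays. With poly-A centring neither was called (0.70 and 0.37). All 2 probe sets of Col1a1 and all 3 of Col1a2 were called higher.

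The other 5 fibrillar chains were not called. Besides Col2a1 and Col11a1, the cartilage chains described below, they were Col27a1, a chain of growth cartilage, which differed by 0.82 (95% interval -0.08 to 1.72), Col24a1, a chain of developing bone, by 0.67, and Col11a2 by 0.66. Col24a1 lay below the array median on all arrays. With poly-A centring those 3 became -1.66, -1.81 and -1.82.

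**Figure D2:**
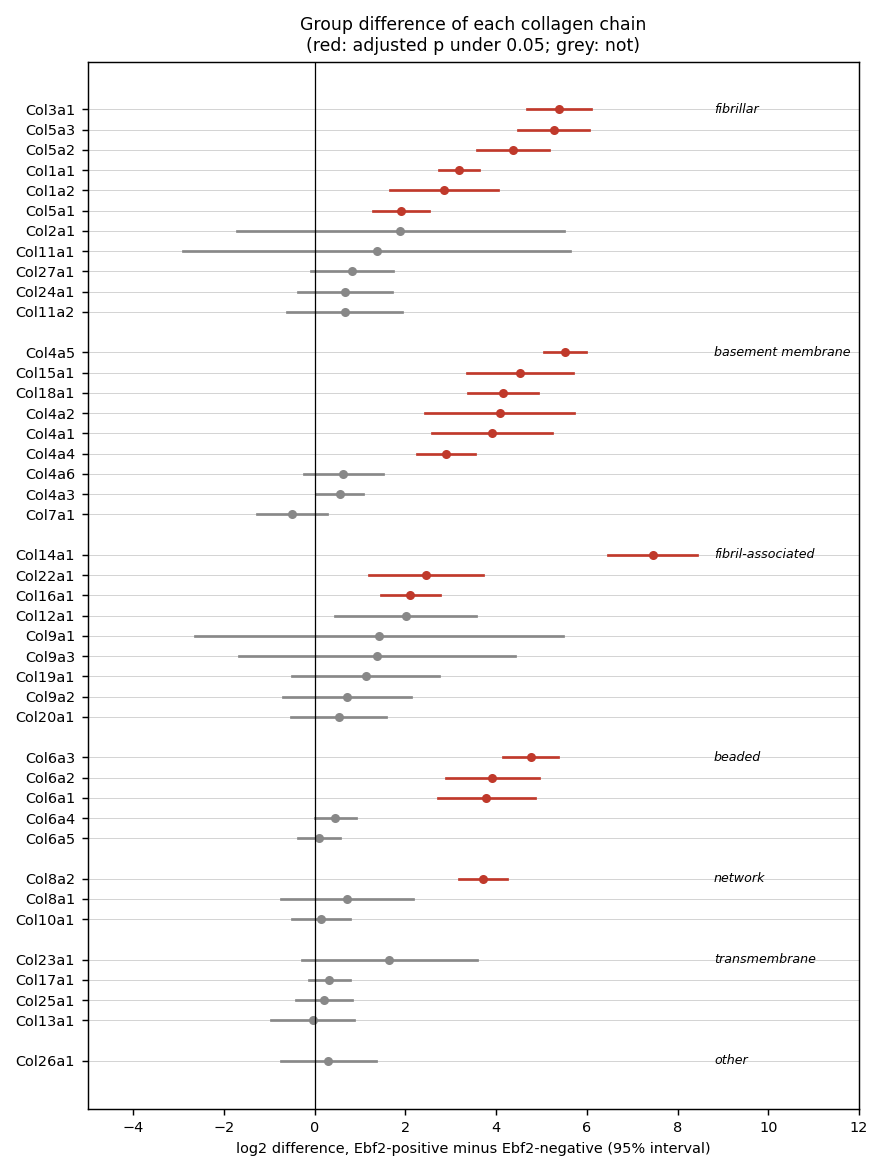
Difference in log2 signal, Ebf2-positive minus Ebf2-negative (horizontal axis), for each of the 42 collagen chains by class; points are limma estimates, bars their 95% intervals, red where adjusted p was under 0.05. Every called chain lies right of 0, Col14a1 lies farthest at 7.45, and the widest intervals belong to Col11a1, Col9a1, Col2a1 and Col9a3.

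Of the 9 basement membrane chains, 6 were called higher and 0 lower, with a median of 3.92 (1.44 with poly-A centring). Col4a1 and Col4a2 form the common type IV trimer of vessel and other basement membranes. Col4a1 was at 12.03, 12.44 and 12.32 in Ebf2-positive cells and at 7.39, 9.60 and 8.04 in Ebf2-negative cells. Col4a2 was at 11.03, 11.88 and 11.59 in Ebf2-positive against 6.26, 8.97 and 7.03 in Ebf2-negative cells. The pair had the same order of arrays within each group, with Ebf2-negative replicate 2 the highest of its group for both. Their differences were 3.92 (SE 0.55, adjusted p = 0.004 in limma) and 4.08 (SE 0.68, adjusted p = 0.00727), or 15.1-fold and 16.9-fold.

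Of the neighbours Col4a5 and Col4a6, the first was called and the second was not. Col4a5, a chain of kidney and smooth muscle basement membranes, was at 7.25, 7.41 and 7.15 in Ebf2-positive cells and at 1.92, 1.74 and 1.58 in Ebf2-negative cells. Those Ebf2-negative values are near the bottom of the signal range, so the difference of 5.52 (SE 0.19, 46.0-fold, adjusted p = 0.000116 in limma) may not be exact. Col4a6 had 3.36, 3.21 and 4.50 in Ebf2-positive against 2.97, 3.14 and 3.06 in Ebf2-negative cells (difference 0.64, adjusted p = 0.264). A second Col4a5 probe set differed by 1.49 and was not called, with Ebf2-positive replicate 2 at 5.20 and replicates 1 and 3 at 3.28 and 3.30.

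The same held for Col4a4, called, and Col4a3, not called, which are neighbours on chromosome 1 and join Col4a5 in the kidney filter. Col4a4 had 5.07, 5.46 and 5.75 in Ebf2-positive cells and 2.51, 2.24 and 2.86 in Ebf2-negative cells. The groups were apart by 2.89 (SE 0.27), 7.41-fold. Col4a3 differed by 0.55 (adjusted p = 0.117), with all 6 values below the array median. Of the 3 Col4a4 probe sets, 2 were called (2.89 and 0.99) and 1 was not (0.17).

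The multiplexins, basement membrane proteoglycans with an interrupted helix, were both called. Col15a1 was at 8.04, 8.67 and 8.22 in Ebf2-positive cells and at 3.06, 4.86 and 3.43 in Ebf2-negative cells. The difference was 4.52 (SE 0.48), 23.0-fold. Col18a1, the source of the endostatin fragment, was at 9.45, 9.67 and 9.62 in Ebf2-positive against 4.81, 6.01 and 5.45 in Ebf2-negative cells. On average they differed by 4.15 (SE 0.32), 17.8-fold, and its second probe set also by 4.15. For both, Ebf2-negative replicate 2 was the highest of its group yet lay more than 3 log2 units below every Ebf2-positive array. Col7a1, the anchoring-fibril chain of skin, had 4.01, 3.58 and 4.32 in Ebf2-positive cells and 4.99, 4.08 and 4.35 in Ebf2-negative cells, overlapping groups (-0.50, adjusted p = 0.316, but -2.98 and called lower with poly-A centring).

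Fibril-associated chains gave the largest single difference among collagens. Col14a1, which coats type I fibres in skin and tendon, was at 10.36, 10.49 and 10.69 in Ebf2-positive cells and at 2.34, 2.91 and 3.94 in Ebf2-negative cells. The difference was 7.45 (SE 0.41), or 175-fold (adjusted p = 0.00032 in limma), and stayed at 4.97 with poly-A centring. A second probe set differed by 4.74 and was called, while the dimmest, below the array median throughout, differed by 0.39.

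In all, 3 of 9 fibril-associated chains were called higher and 0 lower, with a median of 1.42 (-1.06 with poly-A centring). Col16a1, a minor chain found beside fibres of several tissues, differed by 2.11 (SE 0.27, 4.32-fold), at 7.87 ± 0.18 in Ebf2-positive cells and 5.76 ± 0.43 in Ebf2-negative cells. Col22a1, known from the junction of muscle and tendon, averaged 6.12 ± 0.12 in Ebf2-positive against 3.67 ± 1.09 in Ebf2-negative cells, and was called at 2.45 (SE 0.52, adjusted p = 0.0174 in limma). That call rests on a probe set that can cross-hybridise. Without such probe sets Col22a1 differed by 0.62 (adjusted p = 0.115), and without Ebf2-negative replicate 1 its adjusted p was 0.0603. Col12a1, the relative of Col14a1 in tendon and periosteum, had 6.86, 5.61 and 8.07 in Ebf2-positive cells and 4.16, 5.29 and 5.07 in Ebf2-negative cells. For this probe set the groups did not overlap, but with the spread in Ebf2-positive cells it was not called (4.01-fold, SE 0.64 on the log2 scale, adjusted p = 0.0687 in limma). The other Col12a1 probe sets differed by 0.19, -0.14 and 0.24 and were not called either. That at 0.19 lay above the array median on all 6 arrays. Col19a1 and Col20a1 were not called (1.12 and 0.53). Col19a1 was bright on Ebf2-positive replicate 3 alone, at 2.48 and 2.53 on the other Ebf2-positive arrays and 2.17 to 2.30 on the Ebf2-negative arrays.

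Beaded collagen divided cleanly between its common and its rare chains. Col6a1, Col6a2 and Col6a3, the 3 chains of the usual type VI filament, were called higher, and Col6a4 and Col6a5, which can replace Col6a3, were not (median of the class 3.79, or 1.31 with poly-A centring). Col6a3 was at 12.30, 12.44 and 12.47 in Ebf2-positive cells and at 7.82, 7.93 and 7.18 in Ebf2-negative cells. The gap came to 4.76 (SE 0.25), 27.1-fold. Col6a2 was at 12.44, 12.59 and 12.78 in Ebf2-positive against 7.97, 9.63 and 8.46 in Ebf2-negative cells. Their difference came to 3.92 (SE 0.43), 15.1-fold. Col6a1 was at 12.15, 12.36 and 12.49 in Ebf2-positive against 7.84, 9.56 and 8.24 in Ebf2-negative cells. The groups were apart by 3.79 (SE 0.45), 13.8-fold. Col6a1 and Col6a2, neighbours on chromosome 10, kept the same order of arrays in both groups, as Col4a1 and Col4a2 did. A shared order was not particular to neighbours. Col15a1, Col18a1 and Col1a2, on other chromosomes than Col4a1 and Col4a2, had the array order of that pair in both groups.

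Col6a4 was at 3.51, 3.52 and 3.60 in Ebf2-positive cells and at 2.88, 3.15 and 3.23 in Ebf2-negative cells. Those values lie below the array median on all arrays, and the difference of 0.46 was not called (adjusted p = 0.133). Col6a5, also below it, differed by 0.10.

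Network-forming chains were divided too. Col8a2, a short chain of vessel walls and the cornea, was at 6.22, 6.41 and 6.42 in Ebf2-positive cells and at 2.39, 2.96 and 2.55 in Ebf2-negative cells. The difference was 3.72 (SE 0.22), 13.1-fold. Col8a1, the other type VIII chain, was at 8.04, 8.86 and 9.18 in Ebf2-positive against 8.81, 8.47 and 6.67 in Ebf2-negative cells, with overlapping groups (0.71, 95% interval -0.75 to 2.17, adjusted p = 0.453). Col10a1, the chain of hypertrophic cartilage, differed by 0.14 (interval -0.50 to 0.77) and lay below the array median on every array, including the arrays on which other cartilage chains were bright. With poly-A centring Col8a2 was not called (1.24), and Col8a1 and Col10a1 were called lower (-1.77 and -2.34).

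Of the 4 transmembrane chains 0 were called by limma, and 0 had an unadjusted p under 0.05. Their median was 0.27, or -2.21 with poly-A centring, where Col13a1, Col17a1 and Col25a1 were called lower. Col25a1, a chain of neurons and muscle, was at 4.91, 4.26 and 4.91 in Ebf2-positive cells and at 4.28, 4.44 and 4.73 in Ebf2-negative cells (0.21). Col13a1, of the neuromuscular junction, differed by -0.05 and Col17a1, of the epithelial hemidesmosome, by 0.33. Col23a1 differed by 1.65 (adjusted p = 0.198), with 6.58 on Ebf2-positive replicate 3 and 3.80 or less on the other 5 arrays. Its other 2 probe sets were highest on Ebf2-positive replicate 2 instead (5.55 and 5.27). Col26a1, outside the classes, had 3.24, 3.19 and 4.71 in Ebf2-positive against 3.19, 3.58 and 3.46 in Ebf2-negative cells (0.30).

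The cartilage chains split the Ebf2-positive arrays. Col2a1, the fibrillar chain of cartilage, was at 11.37, 5.95 and 11.57 in Ebf2-positive cells and at 7.18, 8.66 and 7.39 in Ebf2-negative cells. Col11a1, which forms the core of type II fibres, was at 9.34, 2.78 and 9.68 in Ebf2-positive against 5.77, 6.18 and 5.75 in Ebf2-negative cells. Ebf2-positive replicate 2 was thus the lowest of all 6 arrays for both chains, and the other Ebf2-positive arrays the highest. Col9a1, which decorates those fibres, had 9.87, 3.90 and 10.04 in Ebf2-positive against 5.31, 7.73 and 6.50 in Ebf2-negative cells. Its partner Col9a3 had 8.62, 3.64 and 7.59 in Ebf2-positive against 4.58, 6.21 and 4.95 in Ebf2-negative cells. Col9a2, the remaining type IX chain, covered a narrower range, with 5.27, 3.21 and 5.31 in Ebf2-positive against 3.61, 4.20 and 3.86 in Ebf2-negative cells. Ebf2-positive replicate 2 was the lowest of the 6 arrays for each type IX chain too.

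Over all 6 arrays none of these 5 chains was called, with differences of 1.89, 1.37, 1.42, 1.37 and 0.71 and adjusted p from 0.421 to 0.627 in limma. All 5 differences were negative with poly-A centring, where only Col9a2 was called lower. Leaving out Ebf2-positive replicate 2, the lowest array for all 5, raises their differences by construction. Calls made without that array are therefore no independent support for a group difference. Without Ebf2-positive replicate 2, all 5 were called higher: Col2a1 by 3.72 (adjusted p = 0.00542), Col11a1 by 3.61 (0.00136), Col9a1 by 3.44 (0.0199), Col9a3 by 2.86 (0.0201) and Col9a2 by 1.40 (0.0137). Col12a1 (0.0173), Col20a1 (0.0385) and Col4a3 (0.0431) passed there as well, and the count of called chains was 27. Without Ebf2-positive replicate 1 or 3 the 19 calls were unchanged in number. A second Col11a1 probe set had 8.52, 6.27 and 7.86 in Ebf2-positive against 4.48, 5.93 and 4.19 in Ebf2-negative cells, a narrower split in which all Ebf2-positive arrays lay above the Ebf2-negative ones (2.68, adjusted p = 0.0525 among probe sets). The second probe sets of Col9a1 (5.76, 3.43 and 5.32 in Ebf2-positive cells) and Col9a3 (8.47, 4.03 and 7.99) repeated the low value of replicate 2.

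Chondrocyte genes that are not collagens had the same low array. Their list of 15 markers averaged 6.77, 4.44 and 7.26 in Ebf2-positive cells, against 4.60, 5.32 and 4.68 in Ebf2-negative cells, and 13 of the 15 were lowest of the Ebf2-positive arrays on replicate 2. Of all 18193 genes, 5904 were lowest there. The summed linear signal of the list ran from 2819 to 9365 on Ebf2-positive and from 629.6 to 1244 on Ebf2-negative arrays. On Ebf2-positive replicate 2 most of that sum came from Comp (log2 signal 10.81) and Chad (9.71). There 9 of the 15 markers lay below every Ebf2-negative array, as did 6427 of 18193 genes. Only Matn1 lay below the array median on all arrays. Acan, the main cartilage proteoglycan, had 8.26, 3.56 and 8.79 in Ebf2-positive against 5.35, 6.68 and 5.40 in Ebf2-negative cells. Chad and Comp, which bind collagens in cartilage and tendon, were the 2 of 15 markers called higher, at 3.06 and 3.78, where 10.8% of all genes were. Without Ebf2-positive replicate 2 there were 10 called higher (1877 of 18193 genes). That count leaves out the lowest Ebf2-positive array of most of these markers. With poly-A centring 0 of the markers were higher and 7 lower (227 and 15596 of all genes). Endothelial markers ran the other way, with list means of 5.70, 7.06 and 5.86 in Ebf2-positive cells, against 4.86, 5.96 and 4.64 in Ebf2-negative cells. Their summed linear signal was 932.4, 1936 and 905.1 on the Ebf2-positive arrays. The part of either cell type in the cartilage chain values was not tested.

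**Figure D3:**
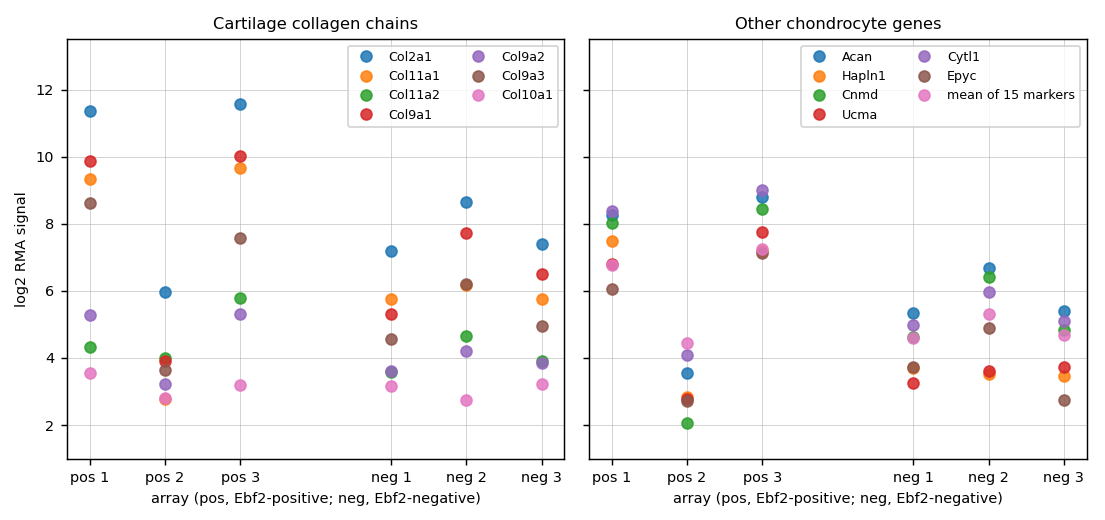
Log2 RMA signal (vertical axis) on each array (horizontal axis; 3 Ebf2-positive, then 3 Ebf2-negative) of 7 cartilage collagen chains (left) and of 6 other chondrocyte genes with the mean of the 15 markers (right); each point is 1 array. Col2a1, Col11a1, Col9a1 and Col9a3 drop on Ebf2-positive replicate 2 to 5.95, 2.78, 3.90 and 3.64, as do Acan (3.56) and the list mean (4.44), whereas Col10a1 stays between 2.75 and 3.55.

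Spread within groups ran in opposite ways for called and uncalled chains. A call itself depends on that spread, so part of the contrast follows from the split and is no separate result. For the 19 called chains the median SD was 0.17 in Ebf2-positive cells and 0.60 in Ebf2-negative cells, and 18 of them varied more in Ebf2-negative cells. For the 23 uncalled chains it was 0.81 in Ebf2-positive and 0.30 in the Ebf2-negative group, and 5 varied more in Ebf2-negative cells. Over all genes the medians were 0.38 (Ebf2-positive) and 0.24 (Ebf2-negative), and 5857 of 18193 genes varied more in Ebf2-negative cells. Ebf2-negative replicate 2 was the highest of its group for 14 of the 19 called chains, 14 of the 23 uncalled chains and 6414 of 18193 genes. The exceptions among called chains were Col1a1, Col5a1, Col4a5, Col4a4 and Col14a1. Ebf2-negative replicate 2 exceeded the mean of the other Ebf2-negative arrays by a median of 0.74 for called chains and 0.03 over all genes. Fibroblast and mural markers averaged 6.32 and 5.80 on that array, against 5.28 to 5.47 and 5.16 to 5.23 on the other Ebf2-negative arrays, and all 9 endothelial markers were highest there among Ebf2-negative arrays. A list of 7 osteoblast markers averaged 6.61 there, against 5.88 and 5.65 on replicates 1 and 3. Chondrocyte markers averaged 5.32, against 4.60 and 4.68. Leukocyte markers, at 6.82, were not highest there (6.48 and 6.89 on replicates 1 and 3). The part of those markers in the collagen values was not tested. Leaving out Ebf2-negative replicate 2 kept all 19 calls, with Col4a1 at 4.55, Col4a2 at 4.86 and Col1a2 at 3.44.

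Ratios of partner chains within an array were compared between groups for 11 pairs. Such a ratio shows unequal change, since probe sets differ in brightness and its level says nothing of the amount of either chain. Groups did not overlap for 4 pairs (two-sided exact permutation p = 0.1 each, the smallest that 3 against 3 arrays allow, and 0.275 adjusted over the 11 pairs, so no pair could pass). Col4a5 over Col4a6 was higher in Ebf2-positive cells, with log2 ratios of 3.58 ± 0.82 and, in Ebf2-negative cells, -1.31 ± 0.23. Both of its probe sets lay below the array median on every Ebf2-negative array, and Col4a6 on 2 of the Ebf2-positive arrays, so this ratio is no measure of the balance of the chains. Col5a1 over Col5a2 was lower, at -1.32 ± 0.20 in Ebf2-positive against 1.14 ± 0.52 in Ebf2-negative cells, as was Col8a1 over Col8a2, at 2.34 ± 0.47 in Ebf2-positive against 5.35 ± 1.15 in Ebf2-negative cells. Col8a2 lay below the array median on every Ebf2-negative array, so the size of the Col8a1 over Col8a2 shift is uncertain. Col6a1 over Col6a2 was -0.27 ± 0.03 in Ebf2-positive against -0.14 ± 0.08 in Ebf2-negative cells (SD, n = 3 each), a gap of 0.13. For Col4a1 over Col4a2 the difference of -0.16 was within the spread (0.76 ± 0.22 in Ebf2-positive against 0.93 ± 0.26 in Ebf2-negative cells, exact permutation p = 0.4). Col1a1 over Col1a2 was -2.63 ± 0.20 in Ebf2-positive against -2.95 ± 1.05 in Ebf2-negative cells (exact permutation p = 1), with Ebf2-negative replicate 2 at -4.17 and every other array between -2.79 and -2.31. That low ratio depends on the Col1a1 probe set used. The second Col1a1 probe set was highest of the Ebf2-negative arrays on replicate 2, at 6.36, against 4.25 and 5.44 on replicates 1 and 3.

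**Figure D4:**
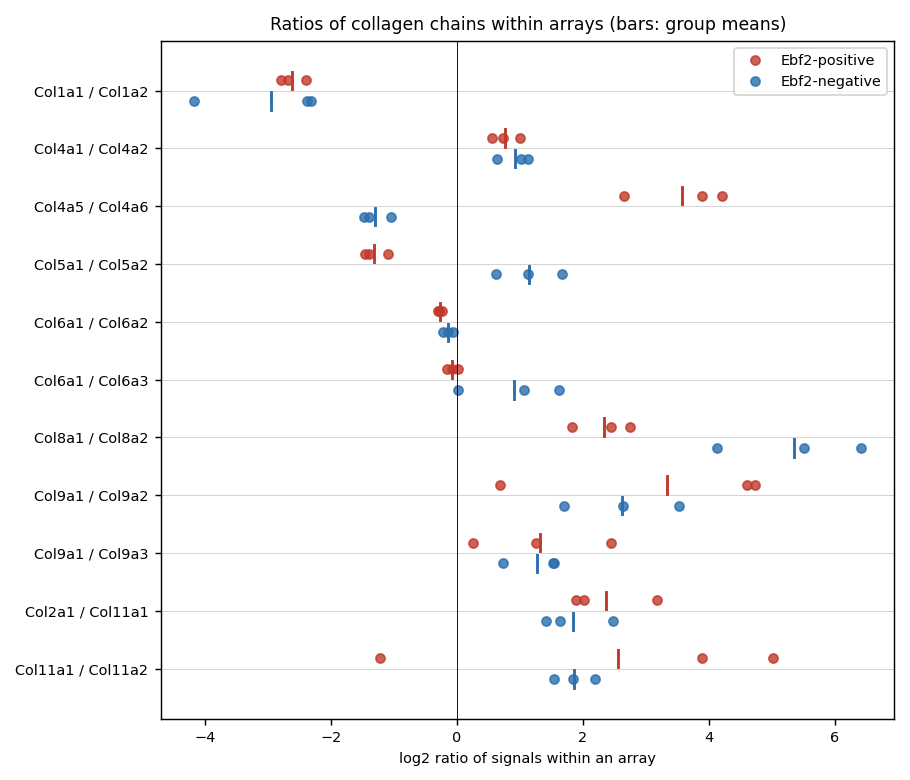
Log2 ratio of the signals of 2 collagen chains within an array (horizontal axis) for 11 pairs; points are arrays, red Ebf2-positive above and blue Ebf2-negative below, and short bars are group means. The groups are apart for Col4a5 over Col4a6, Col5a1 over Col5a2, Col6a1 over Col6a2 and Col8a1 over Col8a2, and the Col9 and Col11 pairs spread widely among Ebf2-positive arrays.

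Probe sets of the same gene bear on how firmly a chain is placed. Of 82 collagen probe sets, 31 were called and all 31 were higher, against 6.39% higher, 8.76% lower and 15.1% in either direction of all 45037 probe sets. Several probe sets were present for 27 chains. All of them were called higher for 8 chains (Col3a1, Col5a2, Col1a1, Col1a2, Col5a1, Col18a1, Col4a1 and Col6a2), some for 5 (Col5a3, Col4a5, Col4a4, Col14a1 and Col22a1) and none for 14. The uncalled probe sets of Col5a3 and Col4a4, and the dimmest of Col14a1, lay below the array median on all arrays. Col8a1 had its 3 at -0.19, 0.71 and 1.36, so its direction was not settled by any of them.

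**Figure D5:**
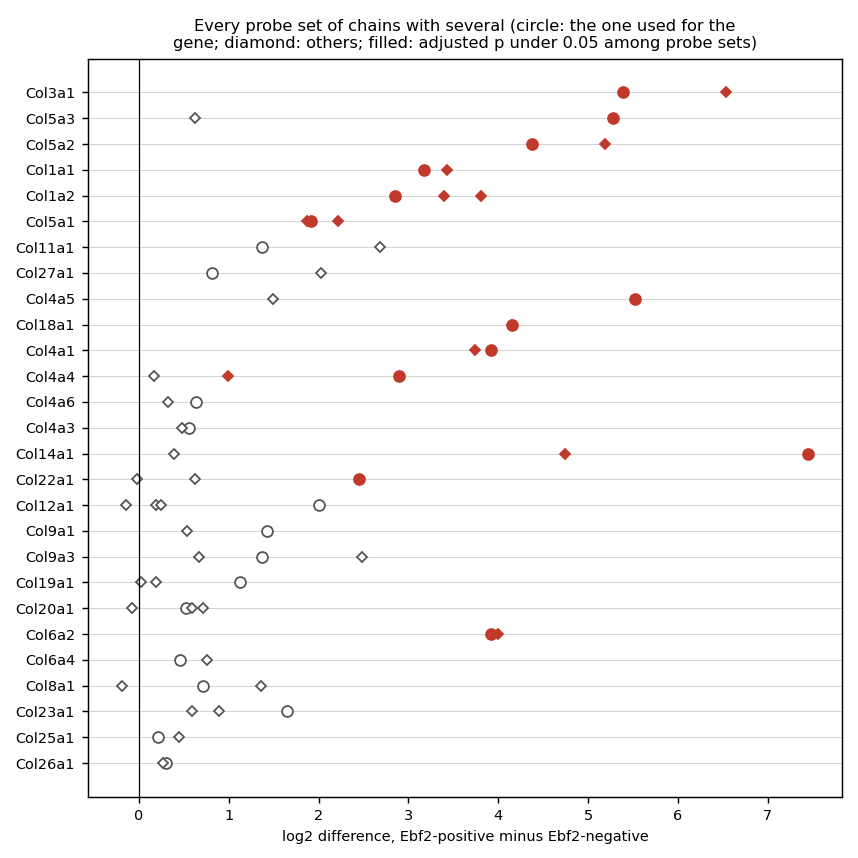
Log2 difference, Ebf2-positive minus Ebf2-negative (horizontal axis), of every probe set of the 27 collagen chains that have several; circles mark the probe set used for the gene, diamonds the others, and filling marks adjusted p under 0.05 among all probe sets. The probe sets of Col1a1, Col5a1, Col18a1, Col4a1 and Col6a2 lie close together, whereas those of Col14a1 run from 0.39 to 7.45 and those of Col4a5 from 1.49 to 5.52.

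The genes that fold and process collagen were also mostly higher on the scale of the arrays. Of 18 measured folding and modification genes, 13 were called higher and 0 lower (72.2%, against 10.8% of all genes; median 1.99, or -0.49 with poly-A centring, where 0 were called higher and 4 lower). Serpinh1, the collagen-specific chaperone, differed by 3.95 (2.97 without probe sets that can cross-hybridise), P4ha2, a catalytic subunit of prolyl 4-hydroxylase, by 3.92 and P3h3, of the prolyl 3-hydroxylase family, by 3.23. The count was 8 without both arrays numbered 2. P4hb, the partner subunit that is also a general disulphide isomerase, was not called (0.60, adjusted p = 0.121), nor was Colgalt1, a collagen galactosyltransferase (0.18).

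Of 10 genes of procollagen cleavage and crosslinking, 6 were higher and 0 lower, where 10.8% of all genes were higher (median 1.94, or -0.54 with poly-A centring, where 2 were higher and 3 lower). Pcolce2 and Pcolce, which enhance cleavage of the C-terminal propeptide, differed by 5.01 and 4.22, and Loxl1, a lysyl oxidase, by 3.27. Lox itself was not called (0.999, adjusted p = 0.177). Of 9 collagen receptor genes, 3 were higher and 0 lower, again beside 10.8% of all genes (median 1.09, or -1.39 with poly-A centring, where 1 was higher and 4 lower). They were Ddr2, a receptor kinase for fibrillar collagen, by 4.62, Mrc2, which takes up collagen fragments, by 3.42, and Itga1, an integrin chain for type IV collagen, by 1.95. As means over their probe sets Ddr2 and Mrc2 differed by 2.61 and 1.81, both still called. The Itga1 call was lost without Ebf2-positive replicates 1 or 2, or Ebf2-negative replicates 1 or 3 (limma adjusted p up to 0.119). It was also lost with array weights (0.0562), without both arrays numbered 2 (0.0534) and with poly-A centring, where its difference was -0.53.

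Promoter windows were available for 33 of the 42 chains, 36 windows in all. The GC box GGGCGG, on either strand, was present in 61.1% of them, against 35.7% of all 32851 windows searched. Windows of 1 chromosome, which holds none of the 42 chains, were left out of that search. The CCAAT box was in 36.1% against 37.4%, and the TATA box TATAAA in 13.9% against 13.6%. The palindromic consensus of EBF factors was in 0 of 36 windows, against 0.904% of all. GC boxes were in 11 of 17 windows of called and 11 of 19 windows of uncalled chains, and CCAAT boxes in 7 of 17 and 6 of 19. The CCAAT and GC boxes can share letters at their ends, while a GC box and the EBF consensus cannot overlap. A match describes sequence only. In the windows printed above, Col4a1 has 1 CCAAT box and 1 GC box, Col4a2 has 1 and 3, Col4a5 has 1 and 1, and Col4a6 has 0 and 1. The GC box of Col4a1 lies in the bases that its window shares with that of Col4a2. It is the same site as 1 of the 3 GC boxes of Col4a2, so it is counted for both genes.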

How the data were processed

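The deposited intensity of a probe set is on a linear scale and was made with RMA, per the submitters' processing notes, which name no version. RMA as usually run corrects background, sets all arrays to the same quantiles and summarises a set's probes, so differences in total RNA per cell are not kept. Amplifying little RNA can widen the spread of dim genes. Log2 was taken of all 45101 probe sets, and 64 control probe sets were left out. Genes came from GEO's platform annotation (34945 probe sets with 1 gene, symbols updated through RefSeq gene IDs), 1 probe set per gene (highest mean), and Ebf2-positive was set against Ebf2-negative with limma 3.58.1 (lmFit, eBayes, two-sided; R 4.3.3), with Benjamini-Hochberg adjustment over 18193 genes at 0.05. RMA gives no detection calls, so the median of each array (3.69 to 3.80) was used to describe dim values. The number of arrays limits the precision. The test was checked on simulated data. Members, classes, lists and pairs were chosen with earlier results of these data known. By rule, array values are given for the 15 called chains with the largest differences, chains ranging over 3 log2 units within a group and the brightest uncalled chain of each class, while up to 3 called genes of each enzyme or receptor list are named by their differences; others were named after their values were seen. Alternatives were other scalings, filters, probe set rules, variance models and array weights, the replicate block and leaving out arrays; leaving out both arrays numbered 2 was chosen after seeing the data. Figures used matplotlib 3.10.9 in Python 3.11.15.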

Additional observations from a re-analysis of the deposited data

How the results depend on the processing

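The 19 called chains stayed called and higher under further quantile normalization, median and 75th percentile centring, averaging the probe sets of a gene, trend and robust eBayes, array weights and the replicate block, and 18 were called without probe sets that can cross-hybridise. The filter on dim genes tested 22 chains and called 16. Leaving out single arrays gave 18 to 27 called chains, 15 to 20 called folding, processing and receptor genes, 26 to 39 called collagen probe sets and 4 to 7 chain ratios with non-overlapping groups (7 without Ebf2-negative replicate 2). Without both arrays numbered 2, 25 chains were called, among them the first 19. Centring on the 75th percentile moved the median of all genes to 0.19. Poly-A centring gave 25 called chains, 14 called pathway genes (11 of them lower, where 22 had been called and 0 lower) and 54 called collagen probe sets, and turned the median of the chains to -0.71. Its differences were -0.57 for Col5a1, -0.0322 for Col22a1 and -0.37 for Col16a1, all 3 uncalled, and -1.66 for Col27a1, -1.81 for Col24a1, -1.82 for Col11a2, -1.84 for Col4a6, -1.93 for Col4a3, -1.77 for Col9a2, -1.95 for Col20a1, -2.02 for Col6a4, -2.38 for Col6a5, -1.77 for Col8a1, -2.34 for Col10a1, -2.15 for Col17a1, -2.27 for Col25a1 and -2.18 for Col26a1, called lower. Col1a1, Col1a2, Col4a1, Col4a4, Col6a1, Col6a2 and Col8a2 stayed positive but uncalled. Col2a1, Col11a1, Col9a1, Col9a3, Col12a1, Col19a1 and Col23a1, uncalled on either scale, turned negative as well. The turned signs follow from the poly-A shift of -2.48 on every difference. The uneven controls (8.70 on Ebf2-negative replicate 2) also widened the spread of each gene. Which scale is nearer to RNA per cell was not tested. Labels number the replicates 1 to 3 in both groups, but same-numbered arrays shared little (deviations correlated at 0.03 to 0.11 across genes, and 5 of 6 arrays correlated best with their own number). With the replicate block 19 chains, 23 pathway genes and 29 collagen probe sets were called. Signal near the bottom of the range, as for Col4a5, Col4a4, Col8a2 and Col14a1 in Ebf2-negative cells, limits how exactly a fold can be given.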
